A study of Mus musculus with 6 samples.

Results

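Egr1, Egr2, Egr3, Nr4a1, Nr4a2, Nr4a3, Ier2, Ier3, Ier5 and Btg2 are 10 early response genes, here followed in the RNA of cortical thymic epithelial cells with and without Psmb11. They were chosen by mouse symbol, looked up from the Ensembl identifier, and all 10 were found among 50600 gene identifiers and were among the 16938 genes tested. The samples were 3 KO libraries (replicates A to C), from mice of the strain B6.B6CB-Psmb11tm1Smta that are Psmb11-/-, and 3 WT libraries (replicates A to C), from mice under the same strain name that are Psmb11+/+. All mice were 8 to 10 weeks old, and polyadenylated RNA was taken from primary cells of the thymus. Psmb11 encodes the proteasome subunit β5t, which is made in cortical thymic epithelium. The comparison asks how the RNA of these epithelial cells differs when Psmb11 is missing. The labels do not say whether replicates came from separate mice or pools, so p-values measure only the spread between these samples, which may be technical.

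Early response genes are transcribed within minutes of a signal, from promoters that are already poised, without a need for new protein. Growth factor signalling through the MAP kinases ERK reaches them through serum response factor and its partners of the Elk family, and cAMP signalling through CREB. Egr genes encode zinc finger transcription factors, Nr4a genes encode orphan nuclear receptors, and Ier genes and Btg2 encode regulators of growth, stress and RNA decay. The same genes are known to respond when a tissue is dissociated into cells, and the labels give no handling times.

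The targeted gene separated the genotypes. Psmb11 had 67, 36 and 41 counts in KO replicates A to C, against 8293, 9297 and 10027 counts in WT replicates A to C, a log2 fold change of -7.56 (edgeR quasi-likelihood test, adjusted p = 1.65e-11). Libraries held 34265035 to 36713388 gene counts in KO and 34660349 to 39224292 in WT. Levels are in CPM, that is, counts scaled for the size of each library. The cortical epithelial markers were present in both genotypes: Prss16 averaged 753 ± 153 CPM over the KO libraries and 1736 ± 58.1 CPM over the WT libraries, and Ccl25 averaged 343 ± 53.9 CPM over the KO libraries and 733 ± 21.2 CPM over the WT libraries (all ± SD with n = 3). KO replicate A stood apart in thymocyte markers, whose summed level was 165.9 CPM there, 96.7 and 112.4 CPM in the other KO libraries and 99.7 to 116.9 CPM in WT.

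Promoter windows from 250 bases before to 50 bases after a start were found for 7 of the 10 genes in the RefSeq table of build GRCm38.p6. Egr1, Egr3 and Ier2 had no window, so their promoters were not searched. Patterns of the pathways above were searched on both strands: the CArG box bound by serum response factor (CC, 6 bases A or T, GG), the cAMP response element TGACGTCA with its short form TGACG, and the EGR site GCGGGGGCG. Windows of 3 genes that were higher in KO and of Ier3, which was not called, are printed 5′ to 3′ on the gene's strand. Capitals mark matches on either strand.
Egr2: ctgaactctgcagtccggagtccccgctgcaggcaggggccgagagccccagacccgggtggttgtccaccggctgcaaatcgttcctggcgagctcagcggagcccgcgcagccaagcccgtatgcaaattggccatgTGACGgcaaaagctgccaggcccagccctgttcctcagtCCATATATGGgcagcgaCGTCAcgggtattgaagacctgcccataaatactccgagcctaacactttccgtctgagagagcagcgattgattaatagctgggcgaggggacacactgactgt
Nr4a1: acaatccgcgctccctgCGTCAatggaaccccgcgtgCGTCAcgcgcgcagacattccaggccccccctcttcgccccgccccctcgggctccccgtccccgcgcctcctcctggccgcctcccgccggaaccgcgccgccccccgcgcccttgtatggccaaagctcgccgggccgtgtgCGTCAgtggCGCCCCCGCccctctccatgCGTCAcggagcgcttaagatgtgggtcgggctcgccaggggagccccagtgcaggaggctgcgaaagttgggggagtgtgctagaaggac
Btg2: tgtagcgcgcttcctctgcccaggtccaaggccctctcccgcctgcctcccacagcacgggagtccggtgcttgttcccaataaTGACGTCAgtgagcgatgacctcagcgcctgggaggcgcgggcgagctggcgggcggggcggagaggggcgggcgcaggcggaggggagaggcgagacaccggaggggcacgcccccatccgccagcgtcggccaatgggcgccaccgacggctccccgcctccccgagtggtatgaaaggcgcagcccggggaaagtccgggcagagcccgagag
Ier3: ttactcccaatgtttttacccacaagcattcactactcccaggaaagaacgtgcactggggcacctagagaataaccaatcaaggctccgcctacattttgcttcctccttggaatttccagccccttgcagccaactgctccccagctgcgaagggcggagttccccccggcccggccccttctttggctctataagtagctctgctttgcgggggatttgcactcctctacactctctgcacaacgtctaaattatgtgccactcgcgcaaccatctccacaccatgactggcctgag
The windows lie at chr10:67537619-67537918 on the plus strand for Egr2, chr15:101266596-101266895 on the plus strand for Nr4a1, chr1:134079106-134079405 on the minus strand for Btg2 and chr17:35821463-35821762 on the plus strand for Ier3. The printed window of Egr2 held a CArG box 72 to 63 bases before its start, a pattern present in 1.63% of all 32851 windows. No other of the 7 genes held one. Egr2 had several windows, and the start of the printed one lies 2394 bases inside the GENCODE gene. The window whose start lies 24 bases inside that gene held none of the patterns searched, and the others held a CArG box. The share per window makes no allowance for the several windows of Egr2. Btg2 held the full cAMP response element 166 to 159 bases before its start, against 1.79% of all windows. Its short form overlaps the full one, was found in windows of 5 of the 7 genes (Egr2, Nr4a1, Nr4a2, Nr4a3 and Btg2), and was present in 20.8% of all windows. Nr4a1 held the EGR site on the minus strand 60 to 52 bases before the start used for its window, against 2.91% of windows. That start lies 12577 bases inside the GENCODE gene. Neither the second EGR site GCGTGGGCG nor the NR4A site AAAGGTCA was found in any of the 7. The exact letters TATAAA of the TATA box were found in Nr4a2 alone, against 13.6% of windows. That match lies on the minus strand, 164 to 159 bases before the start, so the letters alone do not show a working TATA box. The windows of Ier3, which was not called, and of Ier5, which was called higher in KO, held none of these letters. Whether the patterns go with the change in KO was not tested. Median GC content was 52.7% over all windows, against 72.3% in that of Nr4a1, 59% in that of Ier5 and 54% in that of Ier3. GC content alone changes how often such letters occur.

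Of the 10 genes, which were chosen with earlier results of these data known, 9 were higher in KO and 0 were lower. With the edgeR quasi-likelihood test these 9 passed an adjusted p of 0.05 upwards, where 12.5% of all genes tested did, while 11.1% passed downwards and 23.6% in either direction. The same 9 had every KO library above every WT library in CPM, which held for 19.2% of all genes tested, with 20.1% the other way round. In TPM the groups overlapped for Nr4a3 among these 9, with 0.42 in KO A and 0.52 in WT C. The count was smaller with limma on TPM: 6 genes with a mean-variance trend and robust estimation, and 4 (pseudocount 1) or 3 (pseudocount 0.1) without them. The median log2 fold change of the 10 genes was 0.37, beside -0.00 over all genes. The changes were modest for the abundant genes and larger for several scarce ones.

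**Figure D1:**
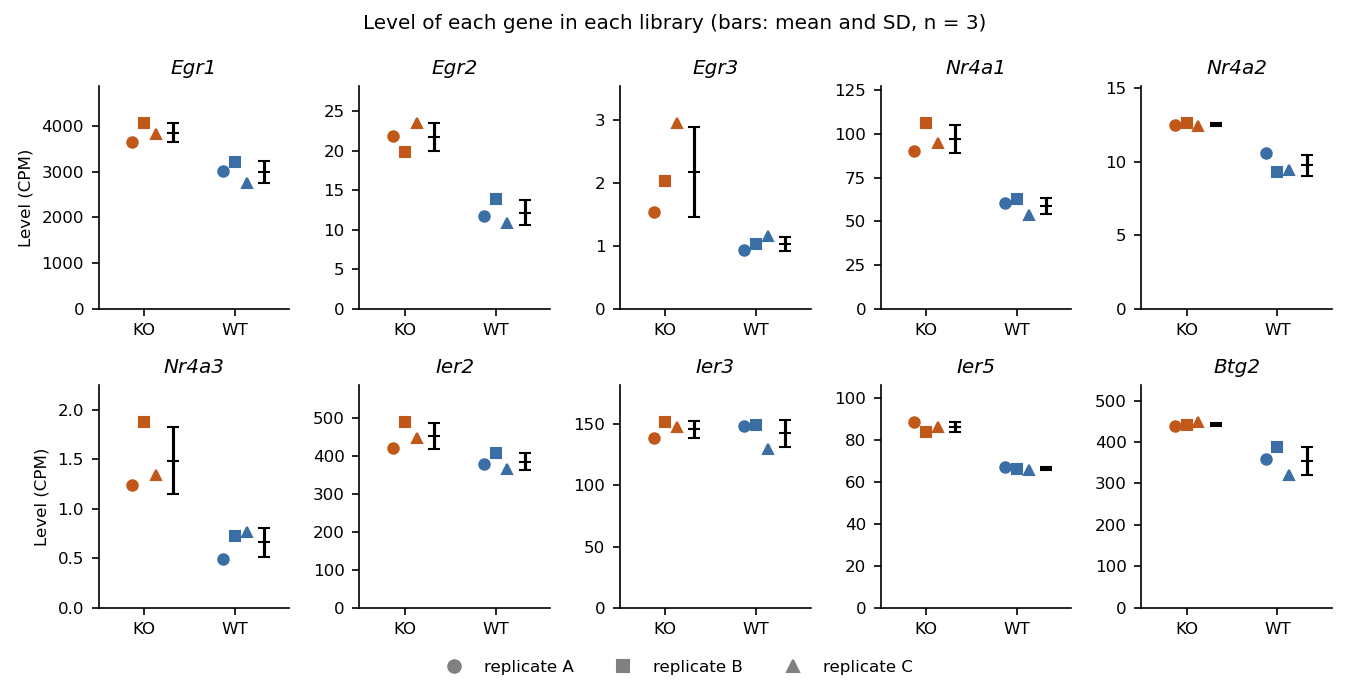
Normalized level (CPM, linear axes from 0) of each of the 10 early genes in the 3 KO and 3 WT libraries; each point is 1 library, and the bars give the mean and SD (n = 3). KO points lie above WT points for every gene except Ier3, where they overlap.

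Egr1, the zinc finger factor that is the most abundant of the 10 genes, rose in KO. It lies on chromosome 18, 34859823 to 34864984, plus strand (GENCODE M21, build GRCm38, as for all gene positions here). Its level was 3654, 4067 and 3837 CPM in KO replicates A to C, against 3017, 3214 and 2753 CPM in WT replicates A to C. The lowest KO library was above the highest WT library. The log2 fold change was 0.36 ± 0.06 (SE; adjusted p = 0.000836, edgeR), a 1.29-fold higher level.

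Egr2, a related factor best known for Schwann cell myelination and for T cell tolerance, showed a larger ratio at a far lower level. On chromosome 10, 67535475 to 67542188, plus strand, it had 21.9, 19.9 and 23.5 CPM in KO replicates A to C, against 11.8, 13.9 and 10.8 CPM in WT replicates A to C. The groups did not overlap, and the fold was 1.79 (log2 0.84 ± 0.09, adjusted p = 1.62e-05, edgeR). Per length, Egr2 was 0.675%, 0.537% and 0.732% of Egr1 in TPM in KO libraries, against 0.410%, 0.462% and 0.480% in WT libraries. Egr3, which acts with Egr2 in lymphocytes and is needed for muscle spindles, was scarce. It lies on chromosome 14, 70077203 to 70082614, plus strand, 15.4 Mb from Psmb11, and had 57, 75 and 101 counts in KO replicates A to C, against 32, 37 and 45 counts in WT replicates A to C. In CPM these are 1.53, 2.03 and 2.95 in KO and 0.928, 1.03 and 1.15 in WT, with KO C highest. Its log2 fold change was 1.06 ± 0.26 (adjusted p = 0.00722, edgeR), and the call was lost with RSEM expected counts (adjusted p = 0.0551, edgeR) and with limma on TPM.

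All of the 3 Nr4a receptors were called higher in KO. Nr4a1, also known as Nur77 and used in T cells as a readout of antigen receptor signalling, led the family at 90.2, 106.2 and 94.9 CPM in KO replicates A to C, against 60.3, 62.6 and 53.6 CPM in WT replicates A to C. It lies on chromosome 15, 101254269 to 101274795, plus strand. No WT library reached the lowest KO library, and the level was 1.65-fold higher (log2 0.72 ± 0.07, adjusted p = 0.000120, edgeR). Nr4a2, known for the upkeep of dopamine neurons, lies on chromosome 2, 57106830 to 57124003, minus strand. It had 12.5, 12.6 and 12.4 CPM in KO replicates A to C, against 10.6, 9.30 and 9.41 CPM in WT replicates A to C. The KO libraries were nearly equal, and the log2 fold change was 0.36 ± 0.09 (adjusted p = 0.00789, edgeR). Nr4a3 lies on chromosome 4, 48045153 to 48086447, plus strand, and was the scarcest of the 10. It had 46, 69 and 46 counts in KO replicates A to C, against 17, 26 and 30 counts in WT replicates A to C. The counts did not overlap, and its fold was 2.23 (log2 1.16 ± 0.28, adjusted p = 0.00736, edgeR). Nr4a2 and Nr4a3 were not called with limma on TPM. Per length, Nr4a1 made up 88.1%, 91.1% and 90.1% of the family's TPM in KO replicates A to C, against 86.4%, 88.5% and 87.6% in WT replicates A to C.

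The Ier genes did not move together. Ier5, which takes part in the activation of heat shock factor 1, lies on chromosome 1, 155096361 to 155099636, minus strand. It had 88.3, 83.9 and 86.3 CPM in KO replicates A to C, against 67.2, 66.3 and 65.6 CPM in WT replicates A to C, and both groups were tight. Its log2 fold change of 0.38 ± 0.04 had the lowest adjusted p of the 10 (5.34e-06, edgeR). Ier2, a small nuclear protein induced by growth factors, lies on chromosome 8, 84661331 to 84662852, minus strand. It had 419.5, 488.3 and 447.2 CPM in KO replicates A to C, against 379.7, 408.8 and 366.6 CPM in WT replicates A to C. KO A was only just above WT B, and the 1.17-fold rise (log2 0.23 ± 0.06, adjusted p = 0.0150, edgeR) was no longer called without KO C, WT A or WT C (adjusted p = 0.0566, 0.0598 and 0.0513).

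Ier3, a stress-induced regulator of survival also called IEX-1, was the exception. It lies on chromosome 17, 35821684 to 35822923, plus strand, and had 138.3, 151.5 and 147.5 CPM in KO replicates A to C, against 148.5, 149.4 and 129.6 CPM in WT replicates A to C. The groups overlapped, with a log2 fold change of 0.03 ± 0.06 (adjusted p = 0.724, edgeR). It had 5047 to 5587 counts per library in KO and 5067 to 5370 in WT. Btg2, an antiproliferative partner of the CCR4-NOT deadenylase, rose. On chromosome 1, 134075170 to 134079120, minus strand, it had 439.4, 442.1 and 447.4 CPM in KO replicates A to C, against 358.8, 387.1 and 319.9 CPM in WT replicates A to C. Every KO library was above every WT library (log2 0.32 ± 0.06, adjusted p = 0.00296, edgeR). No gene annotated in GENCODE M21 overlaps any of the 10 genes.

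**Figure D2:**
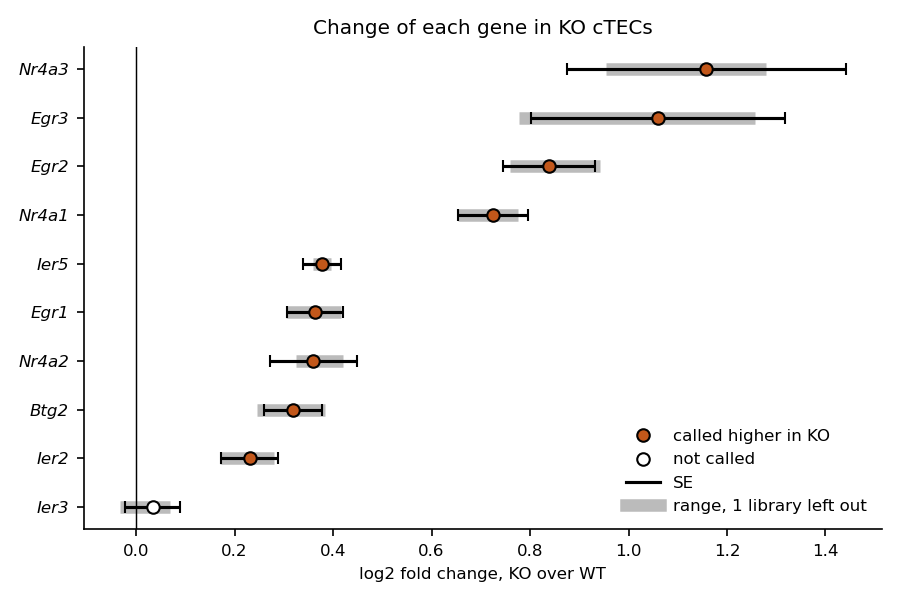
Log2 fold change, KO over WT, of each early gene with its SE from the edgeR quasi-likelihood test (thin bars) and its range when 1 library at a time is left out (grey bands). Egr3 and Nr4a3 have the largest changes (1.06 and 1.16) and the widest errors, and Ier3 lies at 0.03.

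Ordered per length, the 10 genes spanned a wide range of levels. Mean TPM (RSEM abundance scaled for transcript length) in KO was 2235 for Egr1, 598 for Ier2, 304 for Btg2, 264 for Ier3, 66.2 for Nr4a1, 49.9 for Ier5, 14.4 for Egr2, 6.88 for Nr4a2, 2.26 for Egr3 and 0.593 for Nr4a3. The same order held in WT except for one neighbouring pair, with 1696 for Egr1, 497 for Ier2, 250 for Ier3, 237 for Btg2, 38.3 for Nr4a1, 37.2 for Ier5, 7.63 for Egr2, 5.12 for Nr4a2, 1.18 for Egr3 and 0.350 for Nr4a3. Ranked by mean TPM over all genes, Egr1 stood at place 46 in KO and 88 in WT. Btg2 was above Ier3 in 3 of 3 KO libraries without overlap, while Ier3 was above Btg2 in 3 of 3 WT libraries with overlapping ranges. Nr4a1 and Ier5 were separated in KO and not in WT, where Nr4a1 was higher in 2 of 3 libraries.

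**Figure D3:**
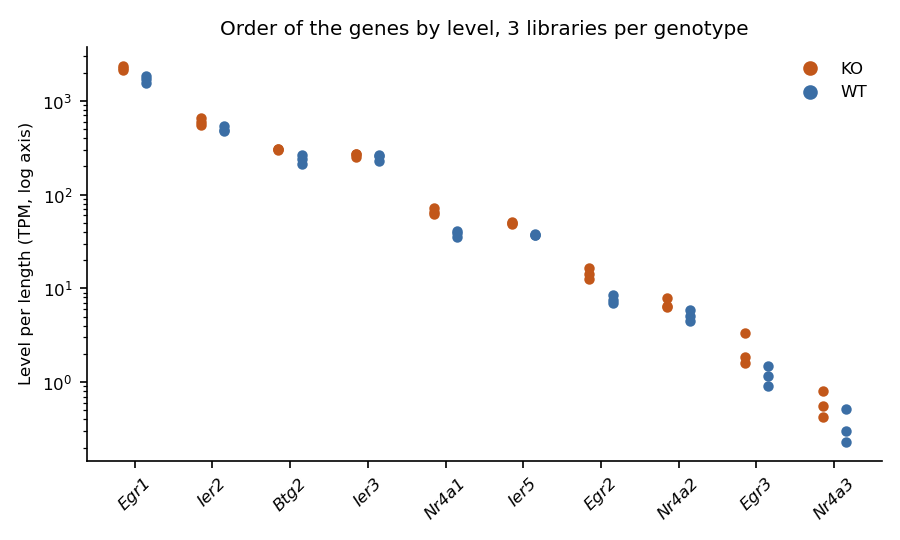
TPM (log axis) of the 10 early genes, 1 point per library, KO left of WT, in the order of the KO means. Levels run from Egr1 down to Nr4a3, whose means are 0.593 TPM in KO and 0.350 TPM in WT.

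The libraries of a genotype were not equal in these genes. Summed over the 10, the level was 4866, 5375 and 5100 CPM in KO replicates A to C, against 4055, 4313 and 3710 CPM in WT replicates A to C, of which Egr1 made up 74.2% to 75.7%. With each gene centred on its own mean log2 CPM, the average was 0.17, 0.33 and 0.32 in KO replicates A to C, against -0.31, -0.20 and -0.32 in WT replicates A to C. KO A was the lowest of its group for 7 genes and WT C the lowest of its group for 7, while KO B and WT B were each highest for 6. KO A, the library with the highest thymocyte marker sum, had the lowest sum of the early genes among the KO libraries. Without KO A, 9 of the 10 genes were still called higher. A link between the levels of marker genes and of the early genes was not tested.

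**Figure D4:**
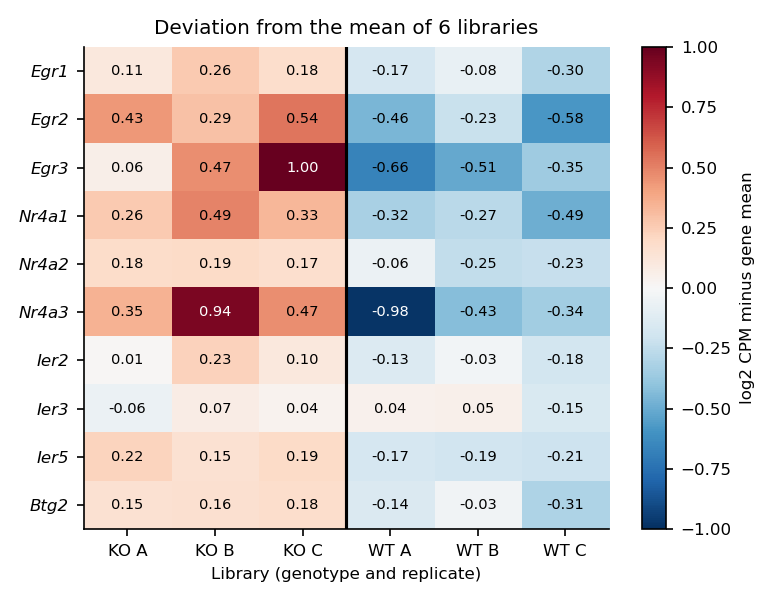
Log2 CPM of each early gene minus its mean over the 6 libraries (KO left, WT right). All KO fields are positive and all WT fields negative except for Ier3, and the extremes are Egr3 in KO C and Nr4a3 in WT A (-0.98).

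The 5 other genes with centred profiles closest to the average of the 10 were ranked by root mean square difference in log2 CPM over the 6 libraries, among 11284 genes averaging 5 CPM or more. They were Slc39a14 (0.032), Srgap1 (0.036), Ly6h (0.040), Ccnd1 (0.040) and Mx2 (0.046). Slc39a14 carries zinc and iron into cells, and Ccnd1 is cyclin D1, which drives entry into the cell cycle. Ccnd1 averaged 107 ± 9.13 CPM over KO libraries and 74.6 ± 2.80 CPM over WT libraries.

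Relatives, partners and activators of these genes passed the test in 1 of 5, 2 of 9 and 3 of 16 cases, shares near the 23.6% of all genes called in either direction. Of the family relatives, 5 of 7 were tested, and only Btg1, an antiproliferative relative of Btg2, was called (log2 0.29, adjusted p = 0.000115, edgeR); the median log2 fold change was 0.11. Egr4, with 4 to 9 counts in KO and 6 or 7 in WT, was too low to test. Among 9 partners 1 rose and 1 fell: Cnot7, the deadenylase subunit bound by Btg2 (log2 0.14, adjusted p = 0.0438), and Rxrg, a retinoid receptor that can pair with Nr4a receptors (log2 -0.57, adjusted p = 0.0325). Among 16 upstream activators, Elk3 (log2 0.55, adjusted p = 2.81e-05) and Mef2c (log2 0.77, adjusted p = 0.00238) rose, the ERK1 gene Mapk3 fell slightly (log2 -0.10, adjusted p = 0.0424), and 13 were not called, Srf and Creb1 among them. The calls of Cnot7, Rxrg and Mapk3 depended on the library left out and on the method, and Mef2c was not called with limma on TPM. These lists measure RNA, so the activity of kinases and factors was not seen.

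Other early genes were mostly higher in KO, beside 12.5% of all genes. Their lists were chosen with earlier results of these data known, so the counts below describe them and are no independent test. Of 16 other early transcription factors 14 rose and 0 fell, with a median log2 fold change of 0.39. The zinc finger factor Klf6 averaged 579 ± 7.93 CPM over KO libraries and 390.5 ± 25.2 CPM over WT libraries (log2 0.57). Fos, which pairs with Jun to form AP-1, averaged 4383 ± 126 CPM over KO libraries and 3419 ± 255 CPM over WT libraries (log2 0.36). Klf4 (log2 0.42) and Maff (log2 0.51) also rose, while Junb (log2 0.11, adjusted p = 0.0879) and Atf3 (log2 0.49, adjusted p = 0.0567) were not called. Of 32 other early regulators 27 rose and 0 fell, with a median log2 fold change of 0.32. They included Hbegf, a ligand of the EGF receptor, with 22.6 ± 0.732 CPM over KO libraries and 10.3 ± 1.23 CPM over WT libraries (log2 1.13), the MAP kinase phosphatase Dusp4 (log2 1.18), the matricellular gene Ccn1 (log2 0.35) and the pseudokinase gene Trib1 (log2 0.61). Zfp36l2, Errfi1, Spry2, Spry4 and Per1 were not called. Limma on TPM without trend or robust estimation called fewer, 8 or 3 of the factors and 17 or 14 of the regulators (pseudocount 1 or 0.1).

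**Figure D5:**
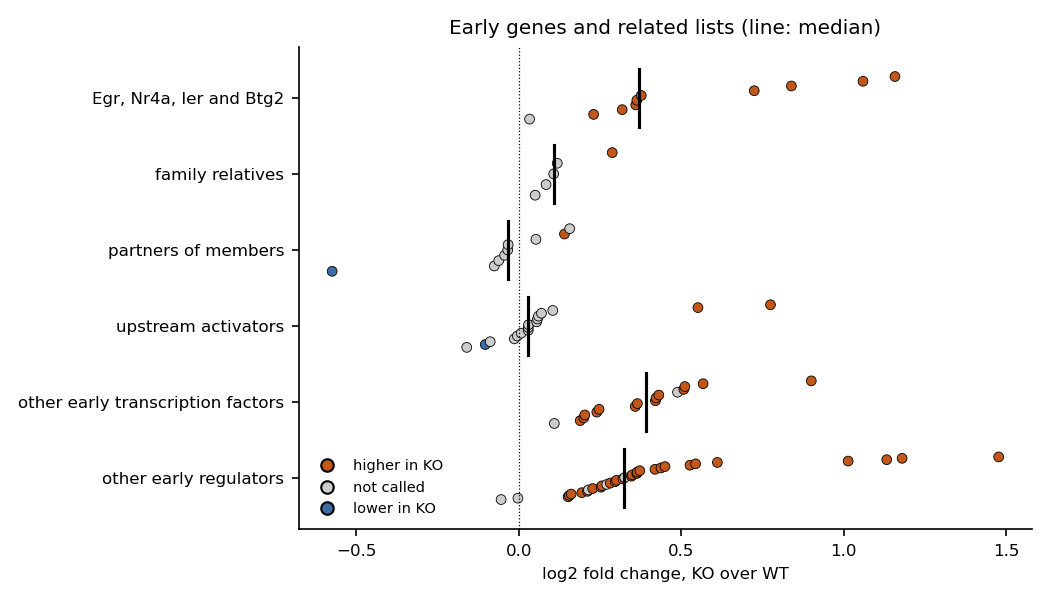
Log2 fold change, KO over WT, of every tested gene of the 10 early genes and 5 related lists; the colour gives the call and the black line the median. Medians are 0.37 for the 10 early genes, 0.39 for other early transcription factors and 0.32 for other early regulators, and 0.11 or lower for the other 3 lists. Genes and lists were chosen with earlier results of these data known.

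Markers of other cells and of cell state also differed between the genotypes. The counts of markers called stand beside 12.5% of all genes called higher and 11.1% called lower. The summed level of cortical markers was 6639 to 7357 CPM in KO and 10443 to 10660 CPM in WT, with 13 of 16 lower and 1 higher. The sums and the 13 include the targeted gene Psmb11, which averaged 1.33 CPM in KO and 252 CPM in WT. Medullary epithelial markers summed to 6172 to 6524 CPM in KO and 4848 to 5420 CPM in WT (7 of 14 higher), and tuft cell markers to 202.8 to 252 CPM in KO and 132 to 144 CPM in WT (9 of 12 higher). Fibroblast and pericyte markers summed to 2168 to 2262 CPM in KO and 1786 to 1903 CPM in WT (11 of 14 higher). Leaving out each library gave 6 to 8 medullary, 6 to 10 tuft and 8 to 10 fibroblast markers higher. It gave 11 to 13 cortical markers lower and 0 to 1 higher. Without KO C, 1 medullary and 1 fibroblast marker were called lower. Dendritic cell and macrophage markers were low, with sums of 68.9 to 76.6 CPM over KO libraries and 36.2 to 40.4 CPM over WT libraries (8 of 13 higher, 5 of 13 without KO A or WT A). Thymocyte (1 of 19 higher), endothelial, B cell and erythroid markers otherwise gave no call in either direction, and no marker was at 0 in all libraries. In bulk RNA fewer cells of a type and less RNA per cell cannot be told apart. Of 13 heat shock genes 3 rose (Dnaja1, Dnajb1 and Dnajb4) and 1 fell (Hspd1), with 1 and 0 left without KO A. Of all genes tested, 12.5% were called higher, 11.1% lower and 23.6% in either direction. The part of other cell types and of handling in the early gene result was not tested.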

How the data were processed

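Polyadenylated RNA of cortical thymic epithelial cells was sequenced in 3 KO and 3 WT libraries. Per the submitters' processing notes, bcl2fastq 2.17, STAR 2.5.1b and RSEM 1.2.28 were used, and the notes name GRCh38, a human build, although the deposited identifiers are mouse Ensembl identifiers, so the alignment build is uncertain. Read counts were deposited raw, per gene and strand setting; the opposite-strand column, which held most gene counts, was taken. The deposited expected counts are RSEM estimates, rounded here. The deposited TPM values are RSEM abundances per length, already given per gene. Of the identifiers, 99.56% matched a symbol in GENCODE M21.

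Genes passing filterByExpr were compared with the edgeR 4.0.16 quasi-likelihood test (R 4.3.3, TMM normalization, no block), with calls where p, adjusted by Benjamini-Hochberg across the 16938 genes tested, was below 0.05. TMM factors lay between 0.994 and 1.01. SE was derived from the F statistic. The genes and lists were chosen with earlier results of these data known. Robust dispersion estimation in edgeR, and a mean-variance trend with robust estimation in limma, were also chosen after results with and without them had been seen. Robust edgeR was kept because it matches the earlier processing of these data; the fits without these settings are given with the alternatives.

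Other settings planned were DESeq2 1.42.0, scaling by RLE or by upper quartile, no filter or a filter at 5 CPM on average, unstranded or RSEM expected counts, limma 3.58.1 with log2(TPM + 1) or log2(TPM + 0.1), a replicate block and leaving out each library. Added after the data were seen were edgeR without robust estimation and limma without trend or robust estimation. A pseudocount shrinks the log2 fold change of genes with a TPM near or below it. The Nr4a3 libraries overlapped in TPM without a pseudocount (0.42 in KO A, 0.52 in WT C), while those of Egr3 and Nr4a2 did not. Why limma calls were lost was not tested. Genes named from the lists were up to 4 called by increasing p. The method was also run on counts simulated with the dispersions estimated from these same libraries. Such a run cannot test whether those dispersions are right. Libraries of a genotype differed by more than counting noise (4.94 to 8.67 times its variance per gene), so no pair was counted as 1 sample; whether replicates share a source was not tested. Python 3.11.15 with matplotlib 3.10.9 drew the figures.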

Additional observations from a re-analysis of the deposited data

How the results depend on the processing

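Direction was kept for 9 of the 10 genes in every alternative that tested them, and Ier3 reversed without WT C (log2 -0.0329, with a highest value of 0.0697 without KO A). The number of genes called was less stable. It was 9 in edgeR under RLE and upper quartile normalization, no filter, unstranded counts, the replicate block and without robust estimation, and with DESeq2. It was 8 with RSEM expected counts, 7 of the 8 tested at a mean of at least 5 CPM, 6 with limma on either TPM scale, and 8 to 9 leaving out each library. Limma without trend or robust estimation called 4 genes at a pseudocount of 1 TPM (Egr1, Egr2, Nr4a1 and Ier5) and 3 at 0.1 TPM, where Egr1 was lost too (adjusted p = 0.0521). Egr2, Nr4a1 and Ier5 were called in every alternative run. The same plain limma fits called 8 and 3 of the early transcription factors, 17 and 14 of the early regulators and 1 and 0 of the family relatives higher.

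Over all genes, 2113 higher and 1876 lower calls became 1295 and 793 with limma at a pseudocount of 1 TPM, 1326 and 800 at 0.1 TPM, and 946 and 444, and 694 and 258, in the plain limma fits. Leaving out each library gave 1476 to 1917 higher and 1239 to 1744 lower, the lowest lower count without WT C. Family relatives higher were 2 at a mean of at least 5 CPM. Partners higher were 2 with RLE, upper quartile, no filter, a mean of at least 5 CPM and the replicate block, and 0 with DESeq2, expected counts, all 4 limma fits and edgeR without robust estimation (0 to 2 leaving out each library). Partners lower were 0 at a mean of at least 5 CPM, with expected counts and all 4 limma fits (0 to 1). Upstream activators higher were 1 in all 4 limma fits (2 to 3 leaving out each library). Upstream activators lower were 0 with upper quartile, DESeq2, a mean of at least 5 CPM, expected counts, all 4 limma fits and the replicate block (0 to 1). The causes were not tested. Same-letter correlations of deviations were -0.016, 0.082 and -0.034, and different-letter ones lay between -0.067 and 0.084. Such correlations cannot show whether libraries with the same letter share a source, which was not tested. The block left 9 genes called. With it the edgeR adjusted p rose for Egr2 (1.62e-05 to 5.04e-05) and Nr4a2 (0.00789 to 0.00829). It fell for the other early genes, among them Egr1 (0.000836 to 2.32e-06), Nr4a1 (0.000120 to 4.22e-09) and Ier2 (0.0150 to 0.000136). Egr3 and Nr4a3 rest on 17 to 101 counts per library.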

Other observations

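Within the early regulators, dual specificity phosphatases, which remove phosphate from MAP kinases, included several of the larger changes; these genes were singled out after their values were seen. Dusp2 had 92, 61 and 42 counts in KO replicates A to C, against 23, 27 and 20 counts in WT replicates A to C (log2 1.48, adjusted p = 0.00195, edgeR). Dusp5 averaged 18.2 ± 0.550 CPM over KO libraries and 9.03 ± 2.59 CPM over WT libraries (± SD with n = 3), a log2 fold change of 1.01 (adjusted p = 0.00440, edgeR). Dusp1 (log2 0.42), Dusp6 (log2 0.30) and Dusp10 (log2 0.16) were also called higher, as was Dusp4, beside 12.5% of all genes; no list of these phosphatases was tested.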
